A study of Rattus norvegicus with 9 samples.

Results

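The genes described here encode the subunits of voltage-gated potassium, calcium and sodium channels and of the potassium channels related to them. They were chosen by symbol: every gene whose name begins with Kcn, Cacn or Scn and a digit was taken, apart from Cacna1s and Cacng1, 2 calcium channel genes of skeletal muscle. Of the 14217 genes that at least 1 probe set named alone, 109 met this rule. They were read by 176 probe sets, 42 of the genes by more than 1, and where there were several, the one with the greatest log2 average across the 9 arrays stood for the gene. The match of symbols used no difference between the bones, but Cacna1s and Cacng1 were left out with earlier results of these data known. Both were called lower in the calvaria (-3.88 and -4.07), and the counts of lower genes do not include them.

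The RNA came from 2 bones of male CD rats of about 110 g, with no drug or genetic change in either group. The calvaria, the flat roof of the skull, gave 4 arrays and the ulna, one of the forearm bones, gave 5. Both were whole bone pieces freed of soft tissue, the calvaria without its sutures and the ulna without its ends, and by the study's methods each extract pooled several rats. Both bones may have come from the same pools, and no source used here ties the array numbers to them. One label field names calvaria for ulna arrays 1 to 4, against their titles, which were used here. Hoxa9, a patterning gene of the limb, read 1.82 to 4.80 on the calvaria arrays and 60.4 to 79.0 on the ulna arrays, so the titles and this gene gave the same grouping.

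Ion channels are membrane proteins that let ions cross when they open. In voltage-gated channels a large pore-forming alpha subunit senses the membrane voltage, and smaller auxiliary subunits set how many channels reach the surface and how they open and close. Other potassium channels open with intracellular calcium, pass current more easily inward than outward, or leak at rest. They are best known from nerve and muscle, but bone cells and the blood cells of the marrow carry several of them, where they set the resting potential, cell volume and calcium entry.

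Values are MAS5 signals, the linear intensities that the array software gives per probe set, scaled so that every array had the same median. The median of all scaled signals was 33.8, and a level of 10.02, the 25th percentile, was used as background. The levels of different genes cannot be ranked, because each probe set binds its target with its own strength. Differences are log2 signals of calvaria minus ulna, and a gene was called when the adjusted p of the moderated test of limma, over all 14217 genes, was below 0.05 and the difference was at least 2-fold. In whole bone, fewer cells of a type and less RNA per cell cannot be told apart.

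Most channel subunit genes did not pass the test. Of the 109 genes, 6 were called higher in the calvaria, which is 5.5%, against 3.59% of all genes tested. A further 7 were called lower, 6.42%, against 4.47% of all genes. Together the 13 called genes made up 11.9% of the members, beside 8.07% of all genes. The higher genes were Cacna1g, Kcnma1, Scn7a, Kcns3, Kcnh2 and Cacng7. The lower genes were Kcnab1, Scn4b, Kcnc4, Kcnk5, Kcnn4, Kcnj5 and Kcnj11. The median difference was 0.10 over the members and -0.02 over all genes. The higher count rested in part on calvaria 3 and fell to 3 genes without that array, which left out Scn7a, Kcns3, Kcnh2 and Cacng7 and brought in Kcnk10. The 3' to 5' log2 ratio of actin, a sign of RNA quality, was 1.035 and 1.024 on calvaria 3 and 4, 0.747 and 0.838 on calvaria 1 and 2, and 0.571 to 0.858 in the ulna, and its part in the calls was not tested. With a pseudocount of 16 in place of the floor, 1 gene was called higher (Cacna1g) and 3 lower (Kcnab1, Kcnn4 and Scn4b), and the other 9 calls were lost.

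Signal was low for much of the set. At both bones 40 of the 109 genes stood at background, beside 1987 of all 14217 genes. Of the 40 members, 2 were called (Kcnh2 and Cacng7). At 1 bone alone another 15 members stood at background, none of them called. The other 54 genes held 11 of the calls. The median of the members' mean signals was 9.97, against 80.3 over all genes. Among the 18 members whose mean over the 9 arrays reached the median of all signals, 6 were called, or 33.3%, where 8.46% of all genes at that level were. That mean includes the higher bone, and Cacna1g, among the 6, averaged 23.8 in the ulna, under the median. Below it, 7 of 91 were called, or 7.69%, beside 7.31% of all such genes. For 16 members, 14.7%, no array of one bone overlapped the other bone's range, beside 28.9% of all genes, and 10 of the 13 called genes were among them. The median standard error of the difference was 0.48 for the members at background at both bones and 0.29 for the rest, so a 2-fold difference was less detectable in the former group at this number of arrays.

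**Figure D1:**
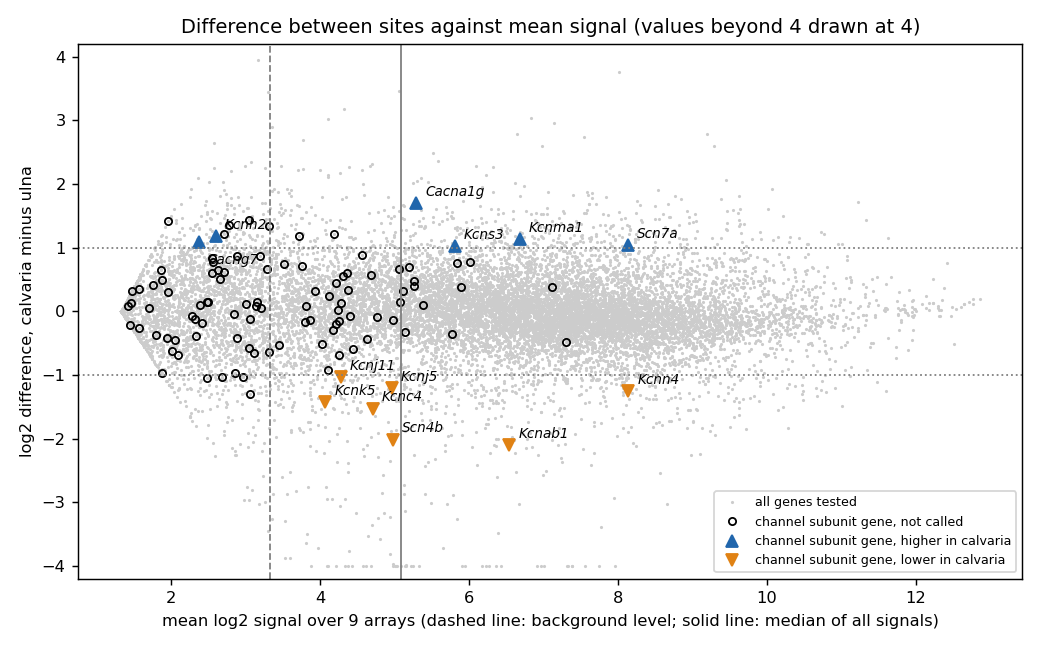
The log2 difference, calvaria minus ulna, of every gene is plotted against its mean log2 signal over the 9 arrays, with the channel subunit genes as larger symbols and the called ones named. Most members lie at the dim end, left of the solid line at the median of all signals, and Kcnh2 and Cacng7 are the called genes left of the dashed line at background.

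**Figure D2:**
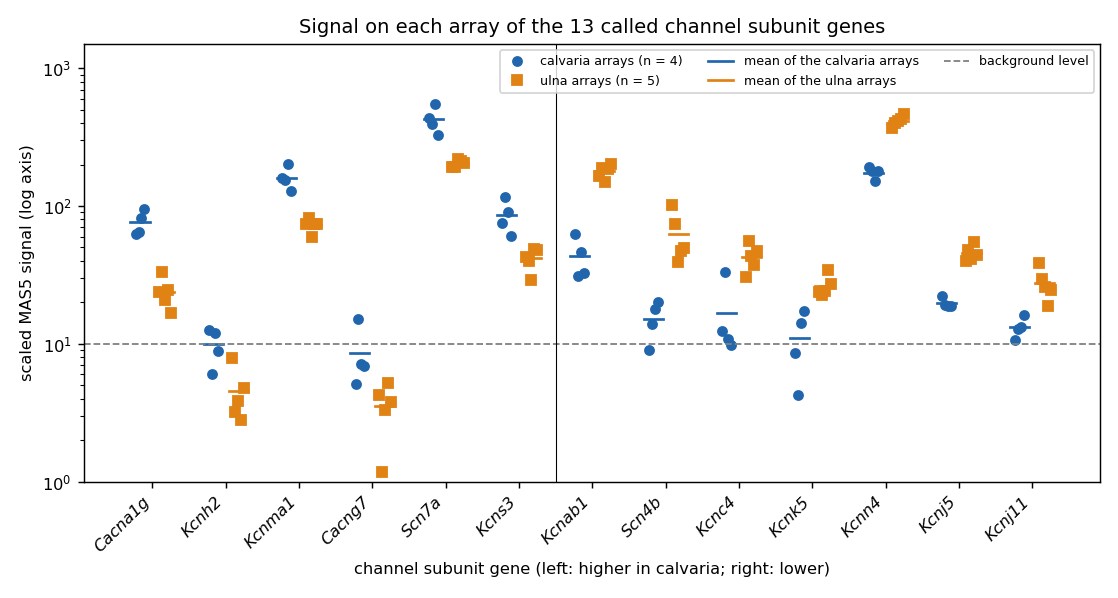
The scaled signal of the 13 called genes is shown on each of the 4 calvaria and 5 ulna arrays, on a log axis, with a short line at the mean of each bone and a dashed line at the background level. The arrays of the bones do not overlap for 10 genes and overlap for Kcnc4, Kcnh2 and Cacng7.

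Promoter sequences from RefSeq (build GRCr8) were available for some of the called genes. They are the 250 bases before the annotated start of the gene, given 5' to 3' on the strand of the gene. The following 3 are shown because they belong to genes with differences in both directions and differ in the motifs they hold. Capitals mark CAGCTG, a form of the E-box bound by muscle and other helix-loop-helix factors, and GGGCGG or its reverse complement CCGCCC, the GC box. The Kcnab1 sequence lies at chr2:151614301-151614550 on the plus strand, that of Scn4b at chr8:54343623-54343872 on the plus strand, and that of Scn7a at chr3:71846285-71846534 on the minus strand.
Kcnab1: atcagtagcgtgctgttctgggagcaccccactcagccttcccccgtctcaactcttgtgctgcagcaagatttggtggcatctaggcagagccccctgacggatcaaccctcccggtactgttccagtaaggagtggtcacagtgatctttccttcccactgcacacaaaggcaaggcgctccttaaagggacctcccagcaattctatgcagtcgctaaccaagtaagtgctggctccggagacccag
Scn4b: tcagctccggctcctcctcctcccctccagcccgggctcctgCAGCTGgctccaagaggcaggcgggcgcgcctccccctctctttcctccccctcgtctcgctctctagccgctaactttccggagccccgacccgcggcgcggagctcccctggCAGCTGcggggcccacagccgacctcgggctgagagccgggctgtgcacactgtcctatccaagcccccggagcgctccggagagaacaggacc
Scn7a: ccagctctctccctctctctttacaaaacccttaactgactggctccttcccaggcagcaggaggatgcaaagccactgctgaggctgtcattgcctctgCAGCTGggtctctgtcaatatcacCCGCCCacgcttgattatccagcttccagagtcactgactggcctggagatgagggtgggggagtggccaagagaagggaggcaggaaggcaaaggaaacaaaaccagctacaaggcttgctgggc

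Kcnab1 had none of the motifs searched, Scn4b had 2 E-boxes, and Scn7a had 1 E-box and 1 GC box. Over the 86 promoters of 77 members, 19.8% held the E-box, which is its own reverse complement, against 12% of all 33469 promoters of this length. The GC box, read on both strands, was in 53.5% of member promoters and 30.5% of all. ACCACA or TGTGGT, the core bound by RUNX factors, was in 12.8% against 14.5%, and TATAAA or TTTATA in 3.49% against 12.9%. None of these motifs contains another. These matches are descriptions of the letters and were not tested against the differences between the bones.

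Among the 31 pore-forming subunits of voltage-gated potassium channels, 2 were higher in the calvaria and 1 was lower. Their median difference was 0.31, with 21 differences above 0, and 17 of the 31 stood at background at both bones. Kcns3, a subunit that is silent alone and modifies the channels it joins, read 75.8, 116, 89.8 and 60.2 on calvaria arrays 1 to 4 and 42.5, 39.6, 29.2, 48.9 and 47.7 on ulna arrays 1 to 5. Every calvaria array was above every ulna array, with the widest spread in the calvaria. The means were 85.4 ± 23.7 (SD, n = 4) and 41.6 ± 7.9 (SD, n = 5), a log2 difference of 1.02 ± 0.22 (SE, limma adjusted p = 0.00618). The call was close to the 2-fold limit and was lost without calvaria 2 (0.86), calvaria 3 (0.98) or ulna 3 (0.90).

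Kcnh2, the pore subunit of the rapid delayed rectifier of the heart, was called at a level that counts as background at both bones. It read 12.7, 6.08, 12.03 and 8.83 on the calvaria arrays and 7.91, 3.18, 3.87, 2.81 and 4.77 on the ulna arrays. Ulna 1 lay above calvaria 2, so the bones overlapped. The log2 difference was 1.18 ± 0.35 (SE, limma adjusted p = 0.0314), and with the floor at the 25th percentile it was 0.15 and not called. Leaving out 1 array in turn kept the call only without calvaria 2 or ulna 1. The adjusted p without each of the other 7 arrays (calvaria 1, 3 and 4 and ulna 2 to 5) was 0.0503 to 0.0794.

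Kcnc4, a rapidly activating channel of neurons and fast muscle fibres, was the one call of this class that was lower in the calvaria. It read 12.4, 33.4, 10.9 and 9.77 there and 30.4, 55.9, 43.1, 37.01 and 46.8 in the ulna. Calvaria 2 stood well above the other calvaria arrays and overlapped ulna 1. The difference was -1.53 ± 0.37 (SE, limma adjusted p = 0.0123). A second, dimmer probe set of the gene read 15.0 and 12.3 on average, a difference of 0.05, and with the mean of the gene's probe sets the call was lost (-0.74).

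2 more pore subunits passed the adjusted p and were under 2-fold. Kcnh3, a relative of Kcnh2 found mainly in the forebrain, had the highest mean log2 signal of this class, with 89.3 ± 20.4 (SD, n = 4) in the calvaria and 51.7 ± 9.66 (SD, n = 5) in the ulna, a difference of 0.78 ± 0.19 (limma adjusted p = 0.0122). Kcnd1, a pore of the transient A-type current, had 43.3 ± 4.17 and 27.6 ± 5.71, a difference of 0.67 ± 0.19 (limma adjusted p = 0.0246). For both genes every calvaria array was above every ulna array.

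The 11 auxiliary potassium channel subunits held 1 call, Kcnab1, and it was the largest difference of any of the 109 genes. Kcnab1 encodes a cytoplasmic beta subunit that speeds the inactivation of Kv1 channels. It read 62.7, 31.0, 46.4 and 32.8 on the calvaria arrays and 165, 190, 149, 186 and 201 on the ulna arrays, a wide gap with no overlap. The means were 43.2 ± 14.7 (SD, n = 4) and 178 ± 20.7 (SD, n = 5), so the calvaria had 0.243 of the ulna signal, a log2 difference of -2.09 ± 0.21 (SE, limma adjusted p = 9.8e-05). The second probe set of Kcnab1 was called in the same direction, with means of 23.4 and 52.9 and a difference of -1.17 ± 0.23.

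Kcnab2, a second beta subunit of the same family, also read less in the calvaria on every array, with 133, 134, 123 and 134 against 169, 182, 207, 182 and 176. Its difference of -0.48 ± 0.07 (limma adjusted p = 0.000545) was a small one with little spread and stayed under 2-fold. Kcnip1 and Kcnip3, calcium-binding partners of the A-type channels, had differences of 1.35 and 1.18 and did not pass the test. Their dimmer probe sets gave 0.10 and 0 for Kcnip1 and -0.31 for Kcnip3. The arrays of both genes overlapped.

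The 7 calcium- or sodium-activated potassium channel genes held calls in both directions. Kcnma1, the pore of the large-conductance BK channel that both voltage and calcium open, read 159, 154, 201 and 128 in the calvaria. In the ulna it read 74.5, 81.8, 59.3, 74.4 and 73.8, all below the calvaria arrays. The means were 161 ± 30.3 (SD, n = 4) and 72.8 ± 8.18 (SD, n = 5), a log2 difference of 1.13 ± 0.14 (SE, limma adjusted p = 0.000303). 2 dimmer probe sets of Kcnma1 had differences of 0.70 ± 0.64 and 0.94 ± 0.59, which passed no threshold, and the mean of the 3 probe sets differed by 0.93, under 2-fold.

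Kcnn4, the intermediate-conductance channel of red cells, lymphocytes and other non-excitable cells, had the smallest adjusted p of the set. It read 191, 178, 151 and 179 on the calvaria arrays and 371, 399, 414, 430 and 466 on the ulna arrays. The bones were far apart next to the spread within each, at 175 ± 16.8 (SD, n = 4) and 416 ± 35.5 (SD, n = 5). The difference was -1.25 ± 0.09 (SE, limma adjusted p = 2.0e-05), or 0.419 of the ulna signal.

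Inward rectifiers, which hold the resting potential, were represented by 15 genes with a median difference of 0.02. Both called genes were lower in the calvaria. A dimmer second probe set of Kcnj4 was higher in the calvaria, with means of 10.7 and 3.44. It differed by 1.56 ± 0.47 and passed both thresholds (limma adjusted p = 0.0429, over all probe sets). The probe set that stood for Kcnj4 read 19.3 and 19.2, a difference of 0.02. Kcnj5, a pore subunit of the G protein-gated channel of the heart, read 22.1, 19.1, 18.7 and 18.8 in the calvaria and 39.9, 48.1, 41.4, 54.8 and 44.0 in the ulna. The arrays did not overlap, and the difference was -1.21 ± 0.14 (SE, limma adjusted p = 0.000279). Its second probe set pointed the other way, with means of 12.1 and 4.81 and a difference of 0.87 ± 0.59 that did not pass, and the mean of both gave -0.17.

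Kcnj11, the pore of the ATP-sensitive channel of pancreatic beta cells and of muscle, read 10.6, 12.8, 13.3 and 16.2 in the calvaria and 38.9, 29.5, 25.8, 18.9 and 24.6 in the ulna. The ranges came close, at calvaria 4 and ulna 4, and did not overlap. The difference was -1.04 ± 0.25 (SE, limma adjusted p = 0.0108). It fell under 2-fold without calvaria 1 (-0.94) or ulna 1 (-0.90) and without further scaling (-0.98). With the replicate number as a block it was -1.07 and did not pass (limma adjusted p = 0.0846). Of its other probe sets, one that the platform marks as shared among transcripts was called with -2.92 ± 0.60, and the other read 17.3 and 20.6 with -0.21.

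The brightest inward rectifier probe set was that of Kcnj8, the second pore of ATP-sensitive channels and a gene of vascular mural cells. It had means of 70.3 ± 14.2 (SD, n = 4) and 53.8 ± 10.9 (SD, n = 5) and did not pass (0.39, limma adjusted p = 0.172). Kcnj2 and Kcnj12, the classical strong rectifiers of heart and muscle, had differences of -0.63 and -0.68, with Kcnj2 at background in the calvaria and Kcnj12 at both bones, and passed no threshold.

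The 11 two-pore-domain genes, whose channels carry leak currents, had a median difference of -0.16. Kcnk5, an acid- and volume-sensitive leak channel, was called lower in the calvaria. It read 8.54, 4.24, 14.2 and 17.4 there and 23.8, 22.4, 24.3, 34.2 and 27.0 in the ulna. The arrays did not overlap, although the calvaria arrays spread widely. The difference was -1.42 ± 0.40 (SE, limma adjusted p = 0.0242), and leaving out calvaria 1, ulna 4 or ulna 5 gave adjusted p of 0.0583, 0.0564 and 0.0503.

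In the opposite direction, Kcnk2, a leak channel opened by stretch and lipids, had 77.9 ± 16.7 (SD, n = 4) in the calvaria and 45.6 ± 6.1 (SD, n = 5) in the ulna, with every calvaria array higher. Its difference of 0.76 ± 0.15 (limma adjusted p = 0.00502) was under 2-fold. Kcnk6, whose probe set was the brightest of the class, differed by 0.38 ± 0.12 (limma adjusted p = 0.0399) with 163 and 124 on average and overlapping arrays.

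The 9 pore-forming alpha1 subunits of calcium channels had a median difference of 0.44, with 6 differences above 0 and 1 call. Cacna1g, the Cav3.1 pore of the low-voltage T-type current, had the largest difference of the members that were higher in the calvaria. It read 63.0, 64.8, 82.5 and 95.5 on the calvaria arrays and 23.7, 33.4, 20.7, 24.7 and 16.7 on the ulna arrays. The lowest calvaria array was well above the highest ulna array. The means were 76.4 ± 15.4 (SD, n = 4) and 23.8 ± 6.17 (SD, n = 5), 3.21-fold, and the log2 difference was 1.70 ± 0.22 (SE, limma adjusted p = 0.000416).

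Cacna1c, the Cav1.2 pore of the L-type current and the best known voltage-gated calcium channel of osteoblasts, read 43.7, 47.9, 55.2 and 45.2 in the calvaria and 33.1, 35.2, 28.4, 29.5 and 23.1 in the ulna. The arrays did not overlap, and the difference of 0.69 ± 0.15 (SE, limma adjusted p = 0.00769) was under 2-fold. Cacna1d, the related Cav1.3 pore, had a difference of 1.43 ± 0.51 with overlapping arrays and did not pass (limma adjusted p = 0.0607). It was at background in the ulna. Its dimmer probe sets differed by 1.17 ± 0.49 and 0.874 ± 0.405 and were not called. The gene was called with the mean of its probe sets and without ulna 2 or ulna 4.

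Both alpha2delta genes, whose products bring the pore to the surface, were uncalled. Cacna2d1 had means of 48.2 and 61.6 with a difference of -0.36 (limma adjusted p = 0.108), while Cacna2d3 had 33.2 and 18.9 with 0.88 ± 0.28 (limma adjusted p = 0.0394), under 2-fold. None of the 4 beta subunits was called, and the brightest, Cacnb3, had 46.5 and 33.2 with a difference of 0.47 (limma adjusted p = 0.0541).

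Of the 7 gamma subunits, Cacng7 alone was called, at background at both bones. It read 5.08, 15.2, 7.12 and 6.89 in the calvaria and 4.28, 1.18, 3.29, 5.18 and 3.75 in the ulna. Ulna 4 lay above calvaria 1, and 1 ulna array was at the floor. The difference of 1.09 ± 0.34 (SE, limma adjusted p = 0.0374) fell to 0.15 with the floor at the 25th percentile and was then not called. The call was kept without calvaria 1 or ulna 4 and lost without each of the others, calvaria 2 to 4 and ulna 1 to 3 and 5, with adjusted p of 0.0545 to 0.0798. With the replicate number as a block, a fit without ulna 5, the limma adjusted p was 0.155. Cacng2, the brightest gamma subunit probe set and a trafficking partner of AMPA receptors in neurons, had 44.6 and 42.1 and a difference of 0.10.

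Among the 9 sodium channel alpha subunits, whose median difference was -0.09, Scn7a was the one call. Scn7a encodes NaX, a sodium-sensing relative of the voltage-gated channels found in glia, sensory nerve and other tissues. It read 435, 392, 549 and 330 in the calvaria and 192, 192, 218, 212 and 204 in the ulna. All calvaria arrays lay above the ulna arrays. The means were 426 ± 92.3 (SD, n = 4) and 204 ± 11.5 (SD, n = 5), a difference of 1.04 ± 0.13 (SE, limma adjusted p = 0.000343). Without calvaria 3 the difference was 0.91, under 2-fold.

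The 3 sodium channel beta subunits were all lower in the calvaria by value, between -2.01 and -0.51, and only Scn4b was called. Scn4b encodes the beta4 subunit, a small membrane protein tied to the alpha subunit. It read 8.97, 13.8, 17.8 and 20.2 on the calvaria arrays and 103, 74.5, 39.0, 47.4 and 49.5 on the ulna arrays. The lowest ulna array was above the highest calvaria array, and ulna 1 and 2 were the highest. The means were 15.2 ± 4.94 (SD, n = 4) and 62.6 ± 25.9 (SD, n = 5), 0.243 of the ulna signal and a log2 difference of -2.01 ± 0.34 (SE, limma adjusted p = 0.00187).

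**Figure D3:**
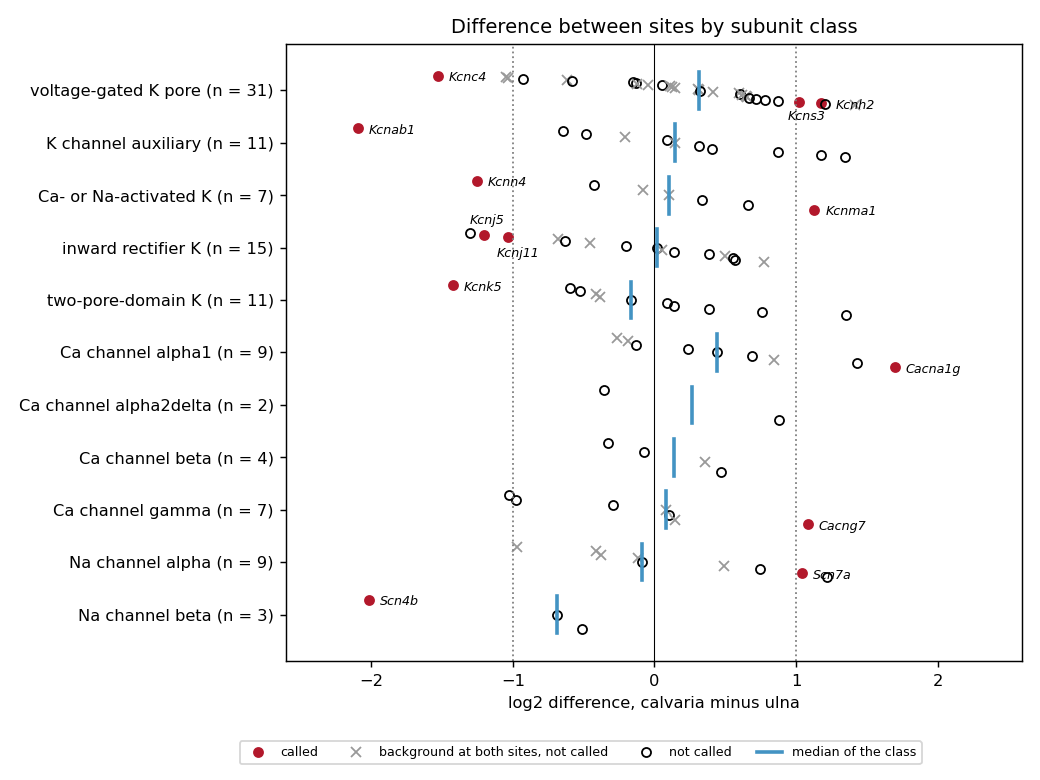
Each point is the log2 difference of 1 gene, calvaria minus ulna, placed in its subunit class, with called genes filled and named, genes at background at both bones as crosses, and a bar at the class median. Called genes are spread over 9 of the 11 classes, and the medians stay between -0.69 and 0.44. The 3 beta subunits of sodium channels lie below 0, with Scn4b alone called.

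Markers of skeletal muscle, marrow and bone cells moved between the bones as well. Of 20 skeletal muscle markers 19 were called lower in the calvaria and none was called higher. The remaining marker, Myh1, went the other way under 2-fold, with 601 and 399 (0.60 ± 0.12, limma adjusted p = 0.00449). The mean log2 signal of the 20 was 3.40 to 3.78 on the calvaria arrays and 8.61 to 10.04 on the ulna arrays. Erythroid markers (8 of 9 lower), megakaryocyte markers (7 of 7 lower) and neutrophil markers (3 of 5 lower) were lower too. Osteoclast markers were higher for 5 of 6 genes, with means of 9.22 to 9.83 against 7.51 to 8.13, and osteoblast markers for 2 of 9. None of 10 neuron markers was called, 6 of them at background at both bones, with list means of 2.96 to 3.42 and 2.71 to 3.17. For Schwann cells, 1 of 7 markers was higher (S100b, 1.28) and 1 lower (Mbp, -1.43), with list means of 5.50 to 6.06 and 5.20 to 5.69. Smooth muscle and pericyte markers had 1 of 10 called in each direction, endothelial markers 2 of 9 higher and 1 lower, and T cell markers 1 of 9 higher. The endothelial list mean was 7.55 to 7.71 on the calvaria arrays and 7.02 to 7.31 on the ulna arrays. That of the osteoblast list was 11.15 to 11.54 and 10.67 to 10.86. Those of the smooth muscle and pericyte list and of the T cell list overlapped.

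**Figure D4:**
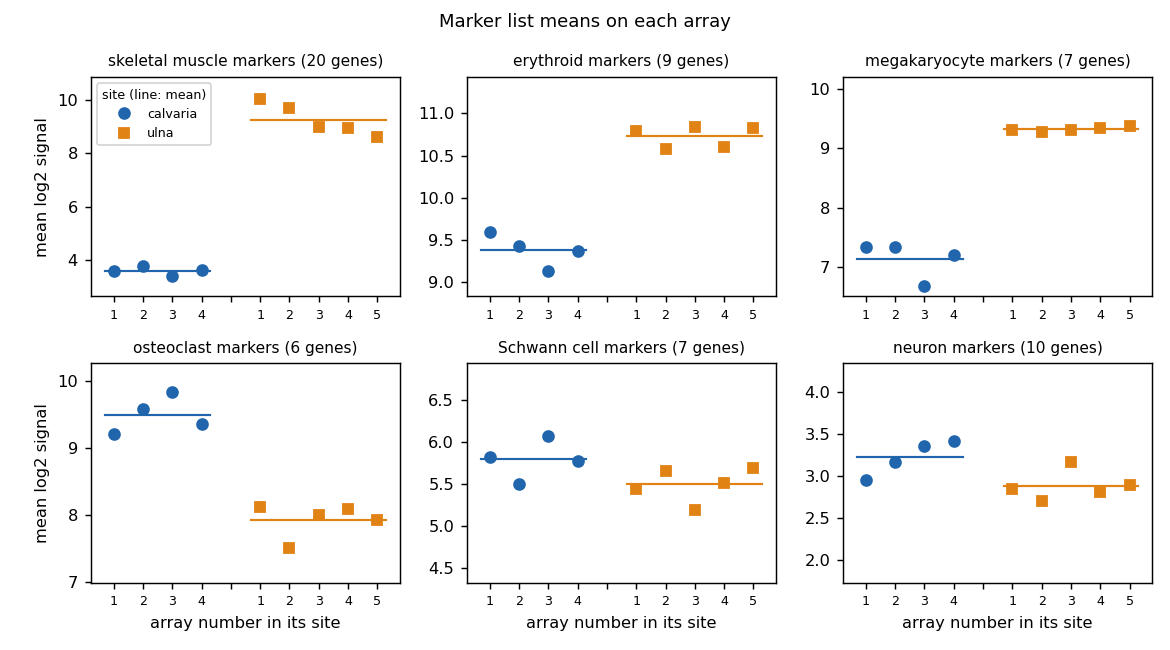
Each point is the mean log2 signal of a marker list on 1 array, with calvaria and ulna arrays in separate colours. The skeletal muscle list separates the bones by 5.66 log2 units, the megakaryocyte and erythroid lists are lower and the osteoclast list is higher on all calvaria arrays.

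Of a list of 11 channel subunits known from skeletal muscle, 8 were measured, and all 8 had differences below 0 (median -0.66). 3 were called, Scn4b, Kcnc4 and Kcnj11. Scn4a, the main sodium channel of skeletal muscle, was at background on average at both bones, with 2.81 and 3.81. Cacnb1, the beta subunit of the muscle calcium channel, read 31.7 and 40.2, a difference of -0.33. Scn4b and Kcnj11 were highest on ulna 1 and next on ulna 2, the arrays with the highest muscle marker means (10.04 and 9.71). Of the ulna arrays, Scn4b was lowest on ulna 3 (39.0) and Kcnj11 on ulna 4 (18.9). Among the ulna arrays Kcnc4 was lowest on ulna 1 and highest on ulna 2. Kcnab1 was highest on ulna 5, where the muscle mean was lowest (8.61), and next on ulna 2. Kcnn4 was highest on ulna 5 and lowest on ulna 1. Kcnj5 was highest on ulna 4 and lowest on ulna 1, and Kcnk5 was highest on ulna 4 and lowest on ulna 2. The part of muscle, marrow or osteoclast RNA in the differences of single channel genes was not tested.

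**Figure D5:**
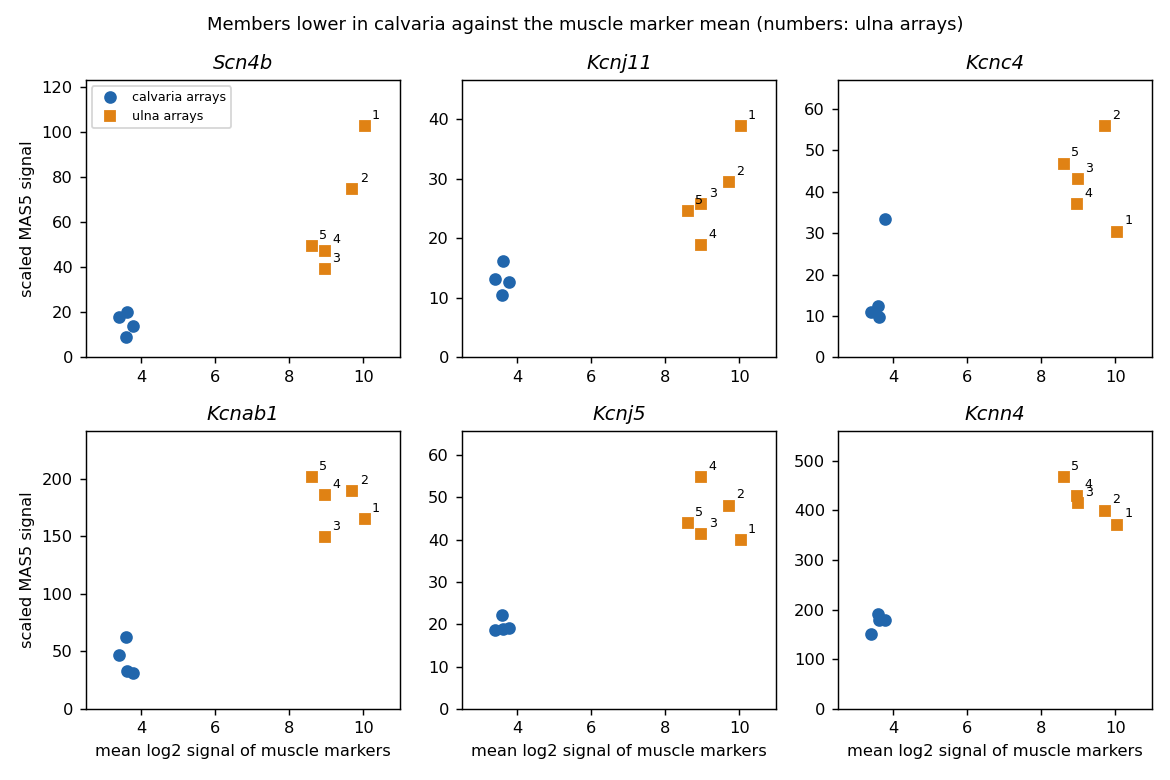
The scaled signal of 6 genes that were lower in the calvaria is plotted against the mean log2 signal of the skeletal muscle markers on the same array, with the ulna arrays numbered. Scn4b and Kcnj11 are highest on ulna 1, the array with the most muscle signal. Among the ulna arrays Kcnn4, Kcnj5 and Kcnc4 are lowest there, and Kcnn4 is highest on ulna 5.

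Other ion channels, calcium store channels and pumps were read for comparison from a list of 39 genes, 35 of them measured. Of these 2 were higher and 4 lower, with a median difference of 0.04. Trpv4, a calcium-permeable channel opened by swelling and warmth, had 39.3 in the calvaria and 7.96, a level of background, in the ulna, where the arrays ran from 2.04 to 18.1, and a difference of 2.69 ± 0.60 (limma adjusted p = 0.00786). Clcn7, the chloride-proton exchanger of the osteoclast ruffled border, had 82.8 and 32.1 with a difference of 1.37 ± 0.13. Atp2a1, the calcium pump of skeletal muscle, fell by 5.60 on the log2 scale, with 25.4 in the calvaria and 1286 in the ulna. Ryr1, the calcium release channel of skeletal muscle, read 127 on average in the ulna and 1.61 to 2.24 in the calvaria, where every array was under the floor, so that the floor sets its fitted difference of -5.57. Clcn2 and Clcn4, a chloride channel and a chloride-proton exchanger, had differences of -1.19 and -1.08. The muscle calcium channel genes left out of the set, Cacna1s and Cacng1, averaged 42.6 and 58.9 in the ulna and 1.72 and 2.15 in the calvaria, under the floor of 2.51. Their fitted differences of -3.88 and -4.07 depend on that floor and were larger in size than that of any member.

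A difference of 2-fold or more without a call was seen in 11 members (Cacna1d, Cacng8, Kcnc1, Kcng3, Kcnh5, Kcnip1, Kcnip3, Kcnj13, Kcnk10, Kcnq1 and Scn3a). 9 of them were at background at 1 bone or both. Kcnh5, a slowly activating channel of the brain, read 0.529, 25.3, 5.49 and 5.75 in the calvaria and at most 1.86 in the ulna, where all 5 arrays were at the floor. Calvaria 2 was the highest array, and the difference of 1.41 did not pass (limma adjusted p = 0.0826). Kcnk10, a stretch-sensitive leak channel, read 12.7, 17.1, 6.32 and 12.8 in the calvaria and 9.90, 1.09, 1.32, 5.38 and 5.52 in the ulna, a difference of 1.36 ± 0.47 that missed the threshold (limma adjusted p = 0.0557). Its second probe set read 5.13 and 4.91 on average, a difference of 0.006.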

How the data were processed

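Total RNA of 9 bone extracts was hybridised to Affymetrix rat arrays, 1 array per extract. The authors deposited MAS5 signals, which are linear intensities per probe set, with no value at or below 0. The version of the MAS5 software is not given in the sources used here. The number of arrays limits the precision, and p-values weigh the difference between the bones against the spread between these arrays. By the study's methods each extract pooled several rats, so this spread is not that between single rats.

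Groups came from the sample titles. All arrays were scaled to a common median over 31042 non-control probe sets, the mean of the array medians, which ran from 33.01 to 36.59. Values under 2.51, the 10th percentile, were set to it, log2 was taken, and limma (version 3.58.1 in R 4.3.3) was fitted with an intensity trend. Benjamini-Hochberg adjustment ran over 1 probe set for each of 14217 genes. Genes were named from the platform annotation: 20826 probe sets named 1 gene, 436 several and 9780 none. All 109 members matched RefSeq by gene ID. Bacillus control transcripts were spiked in, so the 25th percentile (10.02) served as background. The control transcripts not spiked in reached at most 8.34.

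Named genes were all called members, the brightest member of each class, the measured muscle channel subunits and Kcnh2. Other members were named after their values were seen. Members and lists were chosen with earlier results of these data known. The fit was tested on simulated data. Alternatives were other scaling, floors, a pseudocount, a filter, the mean of probe sets, array weights, the test named in the methods, a replicate block, arrays left out, and, added after seeing the data, background at the median signal.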

Additional observations from a re-analysis of the deposited data

Results flagged for a closer look

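On 4 occasions in 48 groups examined, 1 array stood apart from the others of its bone by Dixon's criterion, and chance gives about 1 in 20. Kcnab2 read 123.2 on calvaria 3 against 133.2 to 134.3 on the other calvaria arrays. Kcnj5 read 22.15 on calvaria 1 against 18.69 to 19.13. Scn4a, which is at background, read 4.372 on calvaria 3 against 1.379 to 2.76. Kcnj2 read 1.637 on ulna 1, below the floor, against 13.01 to 21.35 on the other ulna arrays.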

How the results depend on the processing

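Against 6 genes called higher and 7 lower, a pseudocount of 16 left 1 and 3, and no fold threshold gave 12 higher. A filter on dim probe sets left 2 lower, since the rest were not tested. Leaving out 1 array in turn gave 3 to 8 higher and 5 to 8 lower. Over all genes, 511 and 636 became 285 and 401 with the pseudocount and 2014 and 2575 with no fold threshold. Cacna1g, Kcnab1, Kcnn4 and Scn4b were called in every setting that tested them, and the dim-probe filter left Scn4b untested. The other calls were lost in at least 1 setting, and the pseudocount ended 9 of the 13, 8 of them by size alone. Kcnma1 was also lost with the mean of its probe sets (0.93). Cacng7 and Kcnh2 were lost with the methods' test and with no floor. Cacng2 ranged from -0.10 (without ulna 2) and -0.08 (without calvaria 4) to 0.22 as arrays were left out, and Scn4a turned to 0.082 with no floor. The cause was not tested. The bones may share pools of rats, but the replicate numbers are not stated to mark them. Arrays of the 2 bones were correlated on log2 signals after each probe set's mean in its own bone had been subtracted. These remainders of same-numbered arrays correlated at 0.038 (1), -0.01 (2), -0.009 (3) and 0.043 (4), and those of different number at most at 0.022. Of 4 calvaria arrays, 2 correlated best with their own number. Correlations this small over so few pairs cannot decide whether the numbers mark shared pools. The replicate block left out ulna 5, which has no calvaria array of its number. With this block 5 were called higher and 7 lower: Cacng7 (1.09, limma adjusted p = 0.155) and Kcnj11 (-1.07, limma adjusted p = 0.0846) were lost and Kcnj13 was gained. Without ulna 5 and with no block, Cacng7 was also lost (1.09, limma adjusted p = 0.0674) and Kcnj11 was kept (-1.07, limma adjusted p = 0.0212). Raising background to the median signal, chosen after seeing the data, left 4 higher and 5 lower. 46 members had an array at the floor, which limits their differences.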
